A study of Mus musculus with 8 samples.

Results

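The 10 genes described here let bone cells sense load: the stretch-gated channels Piezo1 and Piezo2, the calcium channel Trpv4, polycystin-1 (Pkd1), connexin 43 (Gja1), pannexins 1 and 3 (Panx1, Panx3), the transcriptional coactivators YAP (Yap1) and TAZ (Wwtr1), and focal adhesion kinase (Ptk2). They are defined by their symbols, with no threshold on measured values. All 10 were found, with 1 row each, among the 55421 genes of the deposited count table, and all 10 passed the filter on low counts that left 17035 genes to test. Polyadenylated RNA was sequenced from hindlimb long bones of 8 male wild-type mice (C57BL/6) that were 15 weeks old when treated. Of these, 4 had received saline vehicle by intraperitoneal injection, and 4 had received doxorubicin, a DNA-damaging chemotherapy drug, as a single intraperitoneal dose of 10 mg/kg. Bones were taken on day 30, and the tibiae and femurs of a mouse, without their ends and spun free of most marrow, gave 1 library, so the replicates are separate animals. The series uses the drug as a model of senescence after chemotherapy, and the comparison asks how these genes differ between doxorubicin and vehicle bones.

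In bone, osteocytes lie in a network of fluid-filled canals and pass signals to osteoblasts and osteoclasts when the matrix is loaded. Stretch or fluid flow opens cation channels such as PIEZO1, and calcium entry is followed by release of ATP through pannexin channels and connexin hemichannels and by spread of the signal through connexin 43 gap junctions. Matrix stiffness and cell tension act through integrins and focal adhesion kinase, and they drive YAP and TAZ into the nucleus, where these bind DNA through TEAD factors. Polycystin-1 is linked to flow sensing by the primary cilium and acts in the osteoblast lineage.

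RefSeq promoter windows on GRCm38.p6 were matched for 7 of the 10 genes. The 250 bases before the annotated start are shown for 4 of them, because Piezo1 and Trpv4 were among the most correlated pairs of members and Yap1 and Wwtr1 are paralogs that share their DNA-binding partners. Each is written 5′ to 3′ on the strand of its gene, and capitals mark a match to the TEAD motif GGAATG on either strand. The Piezo1 window is chr8:122551330-122551579 on the minus strand, that of Trpv4 chr5:114658422-114658671 on the minus strand, that of Yap1 chr9:8004597-8004846 on the minus strand and that of Wwtr1 chr3:57575911-57576160 on the minus strand, the outer of its 2 annotated starts.
Piezo1: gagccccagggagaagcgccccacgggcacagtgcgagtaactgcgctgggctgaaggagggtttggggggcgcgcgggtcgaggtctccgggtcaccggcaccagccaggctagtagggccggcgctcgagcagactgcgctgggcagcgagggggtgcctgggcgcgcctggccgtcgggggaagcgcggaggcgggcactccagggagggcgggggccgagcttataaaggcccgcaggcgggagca
Trpv4: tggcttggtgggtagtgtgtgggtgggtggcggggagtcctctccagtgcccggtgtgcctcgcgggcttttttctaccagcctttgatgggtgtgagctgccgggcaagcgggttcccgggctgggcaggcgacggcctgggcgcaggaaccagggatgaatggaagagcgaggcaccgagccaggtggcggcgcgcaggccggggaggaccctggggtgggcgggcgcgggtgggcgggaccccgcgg
Yap1: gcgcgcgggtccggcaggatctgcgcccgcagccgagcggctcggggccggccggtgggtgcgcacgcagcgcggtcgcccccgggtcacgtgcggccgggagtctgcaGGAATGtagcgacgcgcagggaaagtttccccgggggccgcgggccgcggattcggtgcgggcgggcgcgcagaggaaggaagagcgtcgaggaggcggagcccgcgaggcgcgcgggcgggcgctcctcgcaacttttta
Wwtr1: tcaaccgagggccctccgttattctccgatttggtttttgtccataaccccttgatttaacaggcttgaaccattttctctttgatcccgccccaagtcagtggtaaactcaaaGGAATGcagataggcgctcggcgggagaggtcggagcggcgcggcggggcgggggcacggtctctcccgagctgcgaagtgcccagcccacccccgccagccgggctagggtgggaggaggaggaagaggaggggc
The Yap1 and Wwtr1 windows each held 1 TEAD match, beginning 141 and 136 bases before the start, and those of Piezo1 and Trpv4 held 0. That motif was present in 12.6% of all 32851 windows of this length. Also searched on both strands were the AP-1 motif TGANTCA, found in 6.75% of windows, and the RUNX motif TGTGGT, found in 14.0%. Neither was found in these 4 windows, while the window of Gja1 held 1 AP-1 match beginning 19 bases before the start. The motifs do not overlap in these windows. GC made up 74.0% of the Piezo1 window, 72.0% of that of Trpv4, 76.4% of that of Yap1 and 61.6% of that of Wwtr1. The median over all windows was 52.4%, and the window of Pkd1, not shown, was at 67.2%. A match describes letters and does not show binding.

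The libraries held between 23699525 and 35747083 counts, so that Gja1 rested on 3901 to 11304 counts per library, but Piezo2 on 41 to 93 and Panx3 on 38 to 352. Markers of bone cells were present: the summed level of 11 osteoblast markers ran from 6432 to 13259 CPM (counts scaled to library size with the TMM method) in vehicle and from 5674 to 18523 CPM in doxorubicin bones, and that of 9 osteocyte markers from 513 to 1048 and from 416 to 845 CPM. The same bones held RNA of other cells. Summed levels of 11 neutrophil markers ran from 11082 to 24016 CPM and those of 12 skeletal muscle markers from 4903 to 38486 CPM over the 8 libraries, with vehicle 3 lowest for muscle. Over 13 marker lists, the exact two-sided permutation test of the group difference gave adjusted p between 0.743 and 0.943; the smallest p that 4 mice against 4 allow is 0.0286 before adjustment. In bulk bone, fewer cells of a type and less RNA per cell cannot be told apart.

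None of the 10 genes differed between doxorubicin and vehicle bones beyond the spread between mice. In edgeR's quasi-likelihood test, adjusted over all genes, 0 of the 10 passed a threshold of 0.05, where 0 of 17035 genes (0%) passed. DESeq2 also called 0 of the 10 (0.17% of all genes) and limma-voom 0 (0% of all genes). At an unadjusted p under 0.05, edgeR had 0 of the 10 against 5.36% of all genes. No member had groups that did not overlap, against 3.59% of all genes. Of the 10, 7 had a log2 fold change (doxorubicin over vehicle) above 0 and 3 below, with a median of 0.11, and 57.2% of all genes lay above 0, with a median of 0.04. Scaled by library totals alone, which lowered the median of all genes to −0.02, 6 of the 10 members and 47.0% of all genes lay above 0. The lack of a call does not show equal levels: the 95% interval of the log2 difference reached 1.84 for Panx3, while over the 9 other genes the intervals stayed between −0.74 and 0.99.

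**Figure D1:**
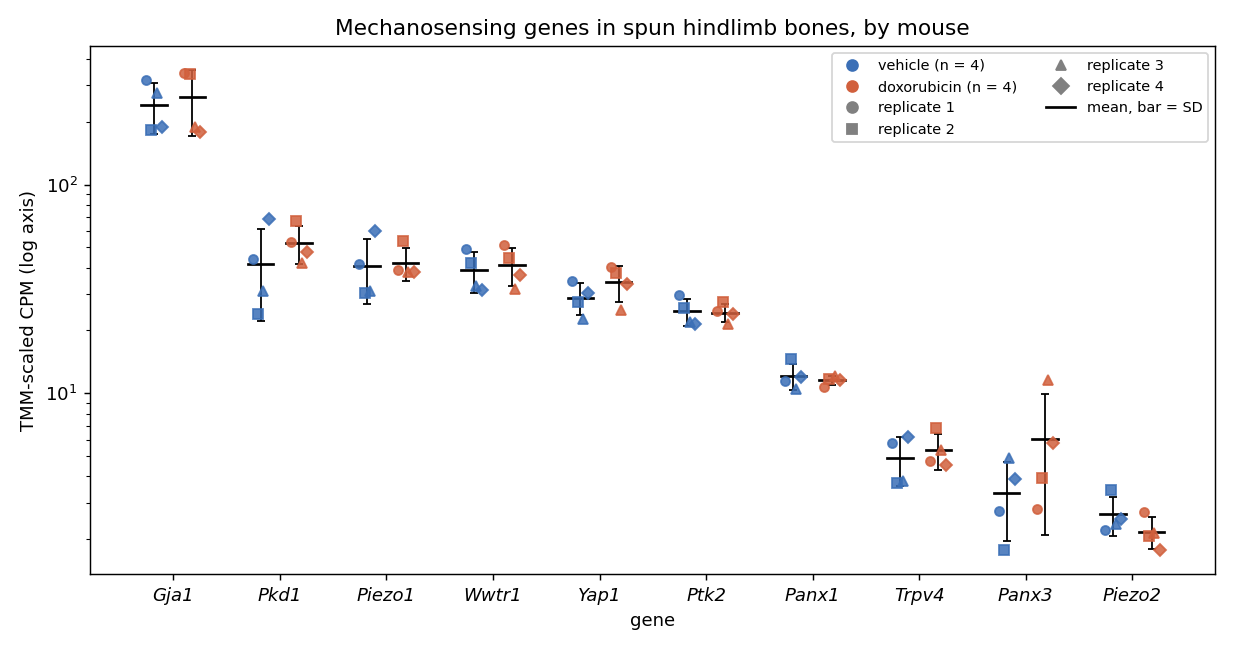
CPM of each gene in each of the 8 mice on a log axis, by group, with the mean and SD of the 4 mice. The groups overlap for every gene, and Panx3 has the widest spread, with doxorubicin 3 at 11.6 CPM.

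**Figure D2:**
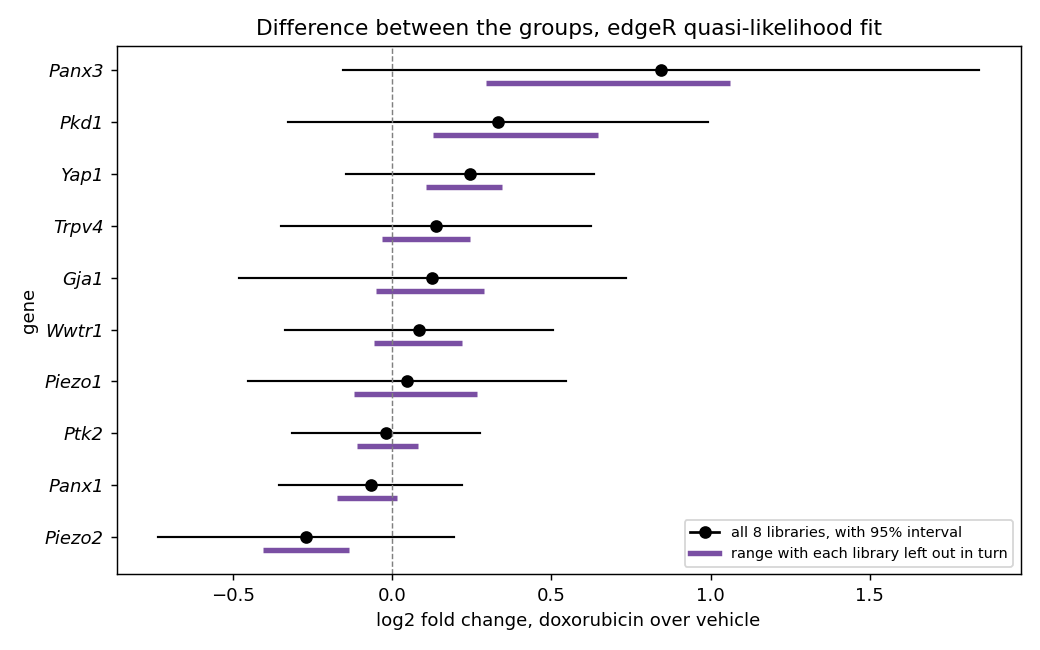
Log2 fold change of each gene (point) with its 95% interval (black line), and the range of the estimate when each library was left out in turn (purple line). Every interval includes 0, and that of Panx3 is the widest, from −0.15 to 1.84.

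Among the channels, Piezo1, the main stretch-gated channel of the osteoblast lineage, measured 41.6, 30.2, 30.9 and 60.1 CPM in vehicle 1 to 4 and 38.9, 53.4, 37.9 and 37.9 CPM in doxorubicin 1 to 4. Vehicle 4 and doxorubicin 2 were the high libraries of their groups, and the doxorubicin values lay within the vehicle range. Group means of 40.7 ± 13.9 and 42.1 ± 7.60 CPM (SD, n = 4 each) gave a log2 difference of 0.05 ± 0.22 (SE; adjusted p = 0.967). Its sign was not stable, at −0.12 without doxorubicin 2 and 0.27 without vehicle 4.

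Trpv4, a calcium-permeable channel opened by swelling and flow, measured 5.81, 3.73, 3.81 and 6.21 CPM in vehicle and 4.74, 6.85, 5.37 and 4.52 CPM in doxorubicin 1 to 4. As for Piezo1, vehicle 2 and vehicle 3 were the lowest libraries and doxorubicin 2 was the highest of its group. Its log2 difference was 0.14 ± 0.22 (SE; adjusted p = 0.897). Piezo2, best known as the touch channel of sensory neurons, was the least abundant: 2.21, 3.45, 2.36 and 2.498 CPM in vehicle and 2.70, 2.07, 2.14 and 1.78 CPM in doxorubicin. Vehicle 2 was highest and doxorubicin 4 lowest. The log2 difference of Piezo2 was −0.27 ± 0.21 (SE; adjusted p = 0.856), and it was below 0 with any library left out, between −0.40 and −0.14.

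Pkd1, whose protein polycystin-1 forms a complex with polycystin-2, measured 44.0, 23.9, 30.8 and 68.0 CPM in vehicle 1 to 4 and 53.2, 67.1, 42.2 and 47.5 CPM in doxorubicin 1 to 4. Both the lowest and the highest value were vehicle libraries, so the doxorubicin values lay within the vehicle range. Group means of 41.7 ± 19.4 and 52.5 ± 10.7 CPM (SD, n = 4 each) gave a log2 difference of 0.33 ± 0.29 (SE; adjusted p = 0.858). It was 0.13 without vehicle 2, 0.18 without vehicle 3, 0.16 without doxorubicin 2 and 0.65 without vehicle 4.

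Piezo1, Trpv4 and Pkd1 were each lowest in vehicle 2 and vehicle 3 and highest in vehicle 4 and doxorubicin 2. In the libraries between they parted: in doxorubicin 1, the log2 deviation from the mean over all libraries was 0.25 for Pkd1, −0.05 for Piezo1 and −0.08 for Trpv4. Over the 45 pairs of members and 8 libraries, the highest correlation of log2 CPM was between Piezo1 and Pkd1 (Pearson r = 0.92, exact permutation p = 0.00290, adjusted 0.0653; Spearman rho = 0.93, p = 0.00223, adjusted 0.1004). Piezo1 and Trpv4 followed (r = 0.91, exact permutation p = 0.00213, adjusted 0.0653; rho = 0.90, p = 0.00456, adjusted 0.103). Without the libraries farthest from the median of the second gene, r was 0.91 and 0.85. No pair passed 0.05 after adjustment. Of the marker lists, Piezo1 had its highest r with the endothelial markers, at 0.80 (exact permutation p = 0.0177). Trpv4 had 0.78 with these (exact permutation p = 0.0289) and 0.79 with the cartilage markers (p = 0.0253). Adjusted over 130 relations of members and lists, each p was 0.420. Without vehicle 4 and doxorubicin 2, the endothelial r was 0.36 and 0.48. With the osteoblast markers, r was 0.49 for Piezo1 and 0.58 for Trpv4.

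The 3 genes share a GC-rich transcript: 59.0% for Piezo1, 59.0% for Trpv4 and 56.8% for Pkd1 in the longest annotated transcript, against a median of 49.2%. The libraries differed in how high GC-rich genes stood. The median log2 deviation of the GC-richest 20% of genes minus that of the GC-poorest 20%, here the GC offset of a library, was −0.41 in vehicle 2 and −0.42 in vehicle 3, the libraries in which the 3 genes were lowest. It lay between 0.016 and 0.34 in the 6 other libraries, with vehicle 4 highest. All 3 genes belong to the GC-richest 20% that define the offset, so the coefficients below do not show a relation particular to them. How many other genes of that 20% would pass the same test was not computed. Over all 8 libraries, r with the GC offset was 0.87 for Piezo1, 0.85 for Trpv4 and 0.92 for Pkd1 (exact permutation p = 0.0100, 0.00754 and 0.00248, adjusted over the 10 members 0.0334, 0.0334 and 0.0248), and rho was 0.74, 0.79 and 0.81 (adjusted p = 0.153, 0.140 and 0.140). Vehicle 2 and vehicle 3 stood apart, and over the 6 others r was 0.82 for Piezo1, 0.52 for Trpv4 and 0.72 for Pkd1, with rho of 0.43, 0.54 and 0.60, and exact permutation p for r of 0.0361, 0.301 and 0.103. Adjusted over the 10 members these were 0.343, 0.431 and 0.343 for r and 0.524 each for rho, so none passed. A test on 6 libraries has little power and cannot tell whether the relation rests on those left out. With each group centred on its mean, r over all 8 libraries was 0.92, 0.86 and 0.90. The mean GC offset was −0.12 ± 0.37 in vehicle and 0.12 ± 0.06 in doxorubicin bones (SD, n = 4 each). With the GC offset as a covariate, chosen after seeing the data, the edgeR log2 difference was −0.21 ± 0.12 for Piezo1, −0.10 ± 0.17 for Trpv4 and 0.02 ± 0.17 for Pkd1 (SE), each with an adjusted p above the threshold (0.968, 0.968 and 0.992).

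**Figure D3:**
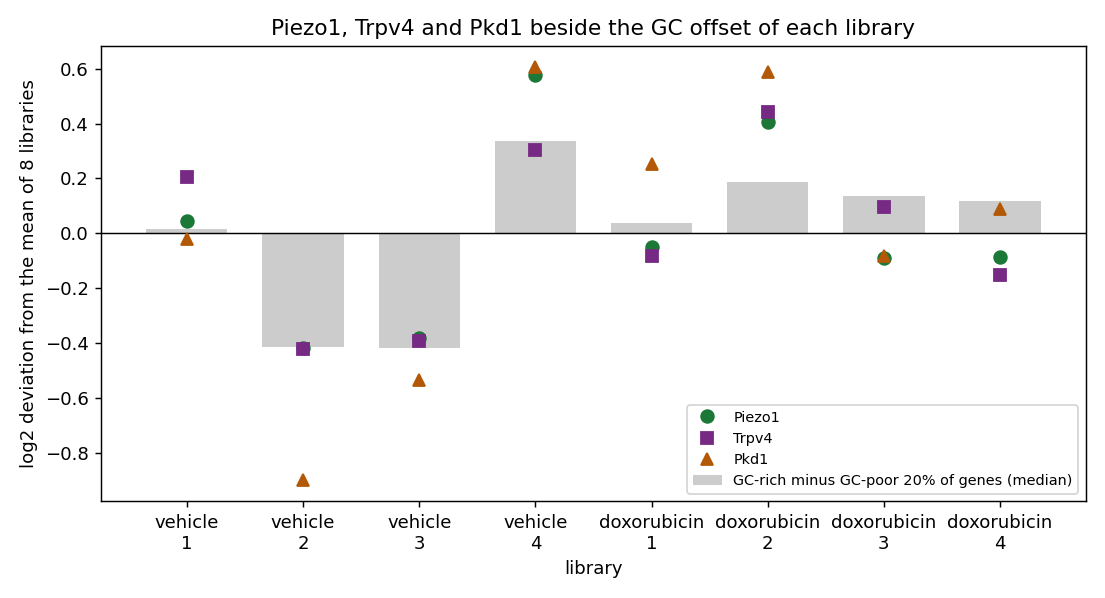
Log2 deviation of Piezo1, Trpv4 and Pkd1 from their mean over the 8 libraries (points), and the GC offset of each library (bars, the median deviation of GC-rich minus that of GC-poor genes). The bars and points are lowest in vehicle 2 and vehicle 3, where the offset was −0.41 and −0.42, and highest in vehicle 4 or doxorubicin 2.

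Exons of Piezo1 share 2441 bases with those of Ctu2 on the opposite strand, and exons of Pkd1 share 693 bases with those of Tsc2 on the opposite strand. The kit kept strand, but the sources used here do not say whether counting used it. Summed over the libraries, Ctu2 had 1736 counts to the 9458 of Piezo1, and Tsc2 had 6975 to the 10746 of Pkd1.

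Gja1, the gap junction gene of the osteocyte network, was the most abundant member. It measured 318, 182, 275 and 188 CPM in vehicle 1 to 4 and 344, 340, 189 and 179 CPM in doxorubicin 1 to 4. High and low libraries occurred in both groups: vehicle 1, vehicle 3, doxorubicin 1 and doxorubicin 2 lay at 275 CPM or above and the others at 189 CPM or below. Group means of 241 ± 66.8 and 263 ± 91.1 CPM (SD, n = 4 each) gave a log2 difference of 0.13 ± 0.27 (SE; adjusted p = 0.926), which ran from −0.05 to 0.29 with 1 library left out.

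Of the marker lists, Gja1 had its highest correlation with the osteoblast markers. Its log2 CPM and the log2 summed CPM of the 11 osteoblast markers had r = 0.92 (exact permutation p = 0.000794) and rho = 0.90 (p = 0.00456) over the 8 libraries. Over the 130 relations of 10 members with 13 marker lists, the adjusted p were 0.103 and 0.297, so neither passed. Without doxorubicin 2 and doxorubicin 4, the libraries farthest from the median of the marker sum, r was 0.90, and with each group centred on its mean it was 0.92. With the mean log2 CPM of the osteoblast markers, rather than their sum, as a covariate, the log2 difference of Gja1 was −0.14.

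Panx1, a widely expressed ATP-release channel, was among the steadiest members. It measured 11.5, 14.6, 10.5 and 11.98 CPM in vehicle and 10.7, 11.8, 12.1 and 11.6 CPM in doxorubicin 1 to 4, with vehicle 2 highest. Its log2 difference was −0.07 ± 0.13 (SE; adjusted p = 0.918), and was 0.016 without vehicle 2.

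Panx3, a pannexin of osteoblasts and of prehypertrophic and hypertrophic cartilage, had the largest log2 difference of the 10 genes and the widest spread. It measured 2.74, 1.77, 4.90 and 3.88 CPM in vehicle 1 to 4 and 2.78, 3.94, 11.6 and 5.77 CPM in doxorubicin 1 to 4. Doxorubicin 3 and doxorubicin 4 lay above every vehicle library, and doxorubicin 1 and doxorubicin 2 lay within the vehicle range. From group means of 3.32 ± 1.36 and 6.02 ± 3.91 CPM (SD, n = 4 each), edgeR gave a log2 difference of 0.84 ± 0.45 (SE; adjusted p = 0.856). Without doxorubicin 3 it was 0.29.

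Doxorubicin 3 also had the highest Col10a1, Ihh and Acan. Col10a1, the collagen of hypertrophic chondrocytes, measured 4.16, 0.233, 6.04 and 1.59 CPM in vehicle and 1.13, 8.56, 29.5 and 2.43 CPM in doxorubicin 1 to 4. Ihh, which prehypertrophic chondrocytes secrete, was at 2.80 CPM in doxorubicin 3 and between 0.304 and 0.901 CPM in the others, and Acan, the cartilage proteoglycan aggrecan, at 15.7 CPM in doxorubicin 3 and between 1.12 and 5.81 CPM in the others. Of the same cartilage list, Matn3, Cnmd and Hapln1 were also highest in doxorubicin 3, and Col2a1, Comp and Sox9 were not. All of these but Acan were picked from the list after their values were seen. The whole list of 9 cartilage markers summed to 62.1 to 207 CPM in vehicle and 117 to 236 CPM in doxorubicin bones, with doxorubicin 3 at 222 CPM and doxorubicin 2 highest. Col2a1 weighs most in this sum, at 180 CPM in doxorubicin 2 and 82.8 CPM in doxorubicin 3. A relation of Panx3 with the less abundant cartilage genes alone was not tested. Of these 9 genes, 8 had a log2 difference above 0 (median 1.196) and 0 passed the threshold. Over the 8 libraries, Panx3 and this sum had r = 0.32 (exact permutation p = 0.448, adjusted 0.860) and rho = 0.29 (p = 0.501, adjusted 0.930), and r was −0.06 without vehicle 2 and vehicle 3 and 0.04 with each group centred on its mean.

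Yap1 measured 34.6, 27.5, 22.6 and 30.3 CPM in vehicle 1 to 4 and 40.3, 37.6, 24.99 and 33.4 CPM in doxorubicin 1 to 4. Replicate 3 was the lowest library of each group, and the ranges overlapped. The log2 difference was 0.24 ± 0.17 (SE; adjusted p = 0.856) and lay between 0.11 and 0.35 with 1 library left out. Wwtr1 measured 49.2, 42.3, 32.7 and 31.3 CPM in vehicle and 51.5, 44.5, 31.7 and 36.9 CPM in doxorubicin, with a log2 difference of 0.08 ± 0.19 (SE; adjusted p = 0.928). The correlation between the paralogs over the libraries did not pass after adjustment (r = 0.76, exact permutation p = 0.0348, adjusted 0.314; rho = 0.76, p = 0.0368, adjusted 0.331), and r was 0.78 without vehicle 4 and doxorubicin 1.

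The strongest negative correlation of Yap1 with a marker list was with the neutrophil markers, and it did not pass after adjustment. Over the 8 libraries its log2 CPM had r = −0.91 (exact permutation p = 0.00312) and rho = −0.93 (p = 0.00223) with the summed CPM of the 11 neutrophil markers, with adjusted p of 0.203 and 0.290 over the 130 relations. Without vehicle 3 and doxorubicin 1, r was −0.82. The neutrophil sum ran from 13647 to 24016 CPM in vehicle and from 11082 to 22785 CPM in doxorubicin bones. The covariate for residual marrow was the mean log2 CPM of the neutrophil and erythroid markers together. With it the log2 difference of Yap1 was 0.10 and that of Wwtr1 −0.06.

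Ptk2, the kinase that relays integrin contact, was as steady as Panx1. It measured 29.6, 25.6, 22.1 and 21.6 CPM in vehicle 1 to 4 and 24.7, 27.4, 21.5 and 23.9 CPM in doxorubicin 1 to 4, so the highest library was 1.38 times the lowest. That ratio was 1.39 for Panx1 and 6.54 for Panx3, and between 1.65 and 2.85 for the 7 other genes. The log2 difference of Ptk2 was −0.02 ± 0.13 (SE; adjusted p = 0.979), with a 95% interval from −0.31 to 0.28. The correlation of Ptk2 with Wwtr1 did not pass after adjustment either (r = 0.86, exact permutation p = 0.00900, adjusted 0.101; rho = 0.83, p = 0.0154, adjusted 0.231), and r was 0.80 without vehicle 1 and doxorubicin 3. With the 9 osteocyte markers, r was 0.80 for Wwtr1 and 0.82 for Ptk2 (exact permutation p = 0.0275 and 0.0173, adjusted 0.420 each), with rho of 0.67 and 0.83 (p = 0.0831 and 0.0154, adjusted 0.623 and 0.500). Without vehicle 1 and doxorubicin 4, r was 0.89 and 0.94. Panx3 had a negative coefficient with these markers, at r = −0.74 and rho = −0.83 (exact permutation p = 0.0307 and 0.0154, adjusted 0.420 and 0.500), and r was −0.77 without the same libraries. None of these relations with osteocyte markers passed after adjustment. The marker sum is weighted by its abundant genes: Dmp1 gave 630 of 1048 CPM in vehicle 1 and 138 of 513 CPM in vehicle 4. The log2 difference of Dmp1 was −1.03, whereas 7 of the 9 markers lay above 0. How far these coefficients rest on Dmp1 was not tested.

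Levels were compared between genes as CPM per kilobase of annotated exon (all exons of a gene merged). Gja1 came first at 24.5 ± 7.30 and Wwtr1 next at 8.37 ± 1.68 (mean ± SD over the 8 libraries), and each stood above the gene after it in 8 of 8 libraries. Piezo1 followed at 4.17 ± 1.05, Yap1 at 3.39 ± 0.665 and Pkd1 at 2.70 ± 0.899. Piezo1 exceeded Yap1 in 7 of 8 libraries, Yap1 exceeded Pkd1 in 7 and Pkd1 exceeded Ptk2 in 6.

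Ptk2, at 2.08 ± 0.247, and Panx1, at 1.96 ± 0.207, overlapped on this scale, with Ptk2 higher in 5 of 8 libraries. Panx3, at 1.36 ± 0.894, and Trpv4, at 1.26 ± 0.276, also overlapped, with Panx3 higher in 3 of 8. Piezo2 was last at 0.140 ± 0.0296, below Trpv4 in 8 of 8 libraries. Per kilobase of the longest transcript instead, Gja1, Wwtr1 and Piezo2 kept their places, and Yap1 and Ptk2 moved above Piezo1. On that scale Ptk2, at 5.25 ± 0.622, and Panx1, at 2.06 ± 0.218, did not overlap, the lowest Ptk2 value being 4.59 and the highest Panx1 value 2.54.

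**Figure D4:**
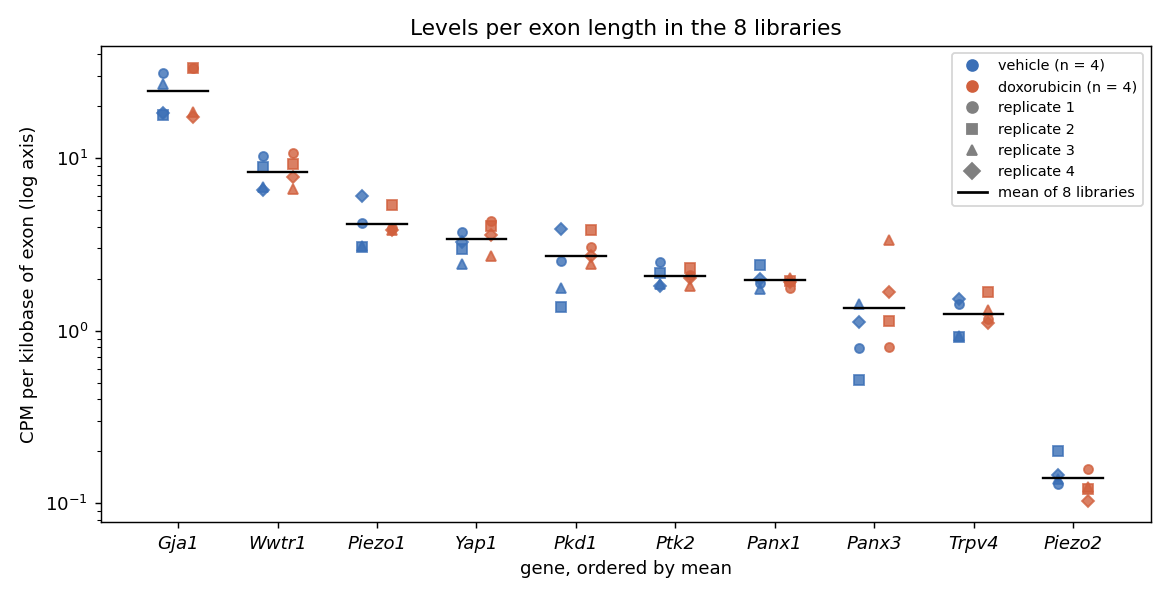
CPM per kilobase of exon of each gene in each library on a log axis, in order of the mean over 8 libraries (black line). Gja1 lies above all other genes in every library and Piezo2 below all others.

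Ratios within a library compared the paralogs. Yap1 over Wwtr1, per kilobase, was 0.363, 0.336, 0.358 and 0.501 in vehicle 1 to 4 and 0.404, 0.436, 0.406 and 0.467 in doxorubicin 1 to 4, so Wwtr1 was the more abundant in every library. Piezo1 exceeded Piezo2 by 15.1 to 41.6 times in vehicle and by 24.9 to 44.5 times in doxorubicin bones. Panx1 exceeded Panx3 in each library but doxorubicin 3, where the ratio was 0.595, and the ratio was highest in vehicle 2 at 4.68. Per kilobase of the longest transcript, Panx1 exceeded Panx3 in 5 of 8 libraries.

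The genes most like each member, by Pearson correlation of log2 CPM over the 8 libraries among genes of at least 1 CPM, were Ttc28 for Piezo1 (r = 0.99), Ehd1 for Trpv4 (0.99), Zfp282 for Pkd1 (0.99), Klhl13 for Gja1 (0.99) and Ctns for Panx3 (0.99). For Yap1 it was Bcl2l2 (0.98), for Wwtr1 Sar1a (0.97), for Ptk2 Foxc2 (0.97), for Panx1 Gm42595 (0.97) and for Piezo2 Gm8730 (0.92). These are the highest of 14783 values for each gene, share the scaling of the same 8 libraries, and carry no test. Transcripts of Ttc28, Ehd1 and Zfp282 are GC-rich too, at 56.7%, 58.6% and 55.4%. Dennd1a, the gene second most like Piezo1 (r = 0.98), is instead GC-poor, at 38.0%. Gm8730, the gene most like Piezo2, is also GC-rich, at 56.6%.

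Of the wider pathways, no gene of 8 lists passed the threshold in either direction. Among 16 Hippo kinases and scaffolds, which restrain YAP and TAZ, 7 lay above 0 and 9 below (median log2 fold change −0.05). In edgeR, 1 of the 16 had an unadjusted p under 0.05, against 5.36% of all genes: Mob1b, an activator of the LATS kinases. Mob1b measured 110, 134, 129 and 87.0 CPM in vehicle 1 to 4 and 82.98, 81.9, 67.0 and 78.7 CPM in doxorubicin 1 to 4. Its log2 difference was −0.57 ± 0.15 (SE, adjusted p = 0.719 in edgeR), with every doxorubicin library below every vehicle library. That was so too for Sav1 (log2 difference −0.20 ± 0.10, SE). Groups did not overlap for 2 of the 16, against 3.59% of all genes. The 4 TEAD genes and their competitor cofactor Vgll4 all lay above 0 under each of the 3 scalings tried. Their median was 0.25 (0.17 when scaled by library totals alone), with 0 of 5 at an unadjusted p under 0.05. Of all genes, 57.2% lay above 0, or 47.0% when scaled by library totals alone. Tead1, named after its values were seen, was at 21.2 CPM in vehicle 3 and between 51.4 and 72.4 CPM in the other vehicle libraries. Tead4 was also lowest in vehicle 3, at 1.07 CPM. Tead2 was the highest at 0.33 ± 0.19 (SE).

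Of 22 commonly used targets of YAP and TAZ, 11 lay above and 11 below 0, with a median of 0.03. Fjx1 was the 1 target at an unadjusted p under 0.05 in edgeR, against 5.36% of all genes. It was at 0.638 and 0.949 CPM (means of vehicle and doxorubicin), a log2 difference of 0.57 ± 0.25 (SE). The classic targets Ccn1, Ccn2 and Ankrd1, named after their values were seen, had log2 differences of −0.95 ± 0.72, −0.62 ± 0.49 and 0.54 ± 0.44 (SE). Lats2, Amotl2 and Ptpn14 belong to this list and to the Hippo list.

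Among 19 focal adhesion genes, 6 lay above and 13 below 0 (median −0.08; 4 and 15 when scaled by library totals alone), and 4 had an unadjusted p under 0.05, against 5.36% of all genes: Vcl, Lims1, Rock1 and Ilk, the last named after its values were seen. Vcl (vinculin, which ties adhesions to actin) measured 185, 202, 156 and 168 CPM in vehicle and 124, 142, 131 and 141 CPM in doxorubicin 1 to 4, without overlap, which was so for 3.59% of all genes (log2 difference −0.40 ± 0.12, SE; adjusted p = 0.825 in edgeR). Lims1, an adaptor of integrin-linked kinase, had a log2 difference of −0.42 ± 0.15 (SE). Of the 15 tested junction and purinergic genes (18 listed), 6 lay above and 9 below 0 (median −0.10), and 3 had an unadjusted p under 0.05, against 5.36% of all genes. The ADP receptors P2ry1 and P2ry12 were at −0.47 ± 0.13 and −0.61 ± 0.18, and Gja5, a connexin of arterial endothelium, at 0.38 ± 0.15 (log2 ± SE). P2ry1 and P2ry12 act in platelets. Beside the lower values of these receptors and of Vcl, Lims1 and Ilk, the 9 megakaryocyte markers summed to 1248 to 1973 CPM in vehicle and 820 to 1293 CPM in doxorubicin bones (exact permutation p = 0.0571, adjusted 0.743), and all 9 had a log2 difference below 0, with 6 at an unadjusted p under 0.05, where 57.2% of all genes lay above 0 and 5.36% had such a p. Their part in the lower values was not tested.

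In the 3 lists left, 0 genes had an unadjusted p under 0.05. Polycystin-2 and cilium genes had 7 above and 4 below 0 (median 0.05), with Kif3b, a motor subunit of ciliary transport, at 0.25 ± 0.14 and Evc at 0.38 ± 0.27 (log2 ± SE). Pkd2, the partner of Pkd1, named after its values were seen, was at 0.03 ± 0.15. Other stretch-gated or load-linked channels (13 tested of 15) had 8 above and 5 below 0 (median 0.06; 6 and 7 when scaled by library totals alone), with the cation channel Trpc1 at −0.47 ± 0.21. Genes that respond to loading (14 tested of 16) had 6 above and 8 below 0 (median −0.04), with Egr1 at −1.77 ± 0.83, Dkk1 (a Wnt inhibitor) at 0.40 ± 0.28 and Timp1 (an inhibitor of matrix proteases) at −0.42 ± 0.29 (log2 ± SE).

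**Figure D5:**
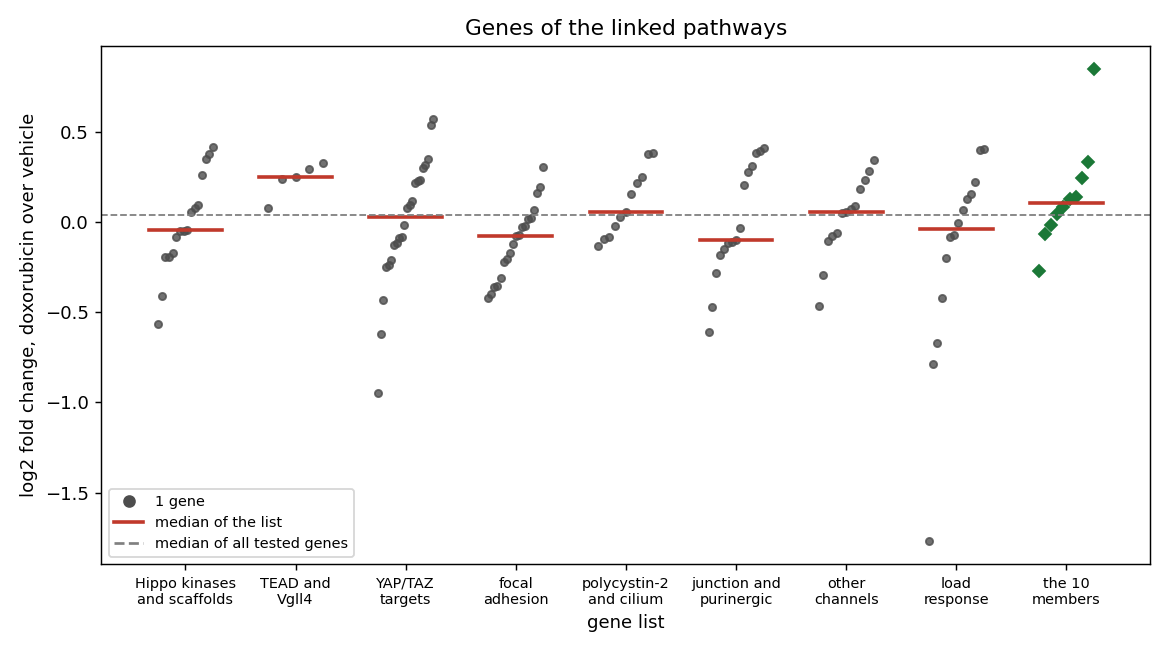
Log2 fold change of each tested gene of 8 pathway lists and of the 10 members (points), with the median of each list (red) and of all tested genes (dashed, 0.04). List medians lie between −0.10 and 0.25, and Panx3 is the highest point of the members.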

How the data were processed

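The deposited file holds expected counts per gene for 8 libraries, all whole numbers, so rounding changed nothing. Per the submitters' processing notes, STAR 2.5.3a and RSEM 1.3.0 were used; the sources used here do not say their roles, the annotation, or whether strand and molecular identifiers were used. The notes name GRCh38, a human build, but the identifiers are mouse. Per the labels' protocols, libraries were stranded and poly-A selected. Positions, exon lengths and transcript GC came from GENCODE M21 (GRCm38), matched by identifier without version.

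Genes were kept by filterByExpr (minimum count 10, total 15), scaled by TMM and tested two-sided with the robust quasi-likelihood test of edgeR 4.0.16 in R 4.3.3, with p adjusted by Benjamini-Hochberg over 17035 genes. Alternatives included DESeq2 1.42.0 and voom from limma 3.58.1. The SE came from the F statistic. At library totals of 23699525 to 35747083 counts, counts fell lowest for Piezo2 and Panx3. Panx3 also had the widest spread between mice, and the number of mice limits the precision of all members. Chi-square per degree of freedom over the 28 library pairs lay between 29.0 and 297. This was only a check for duplicate libraries, and it found none.

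Members and lists were chosen with earlier results of these data known. The rule named all members, the 3 genes of each pathway list with the smallest p (of which most are given), the genes most like each member and a few markers. Where another gene is named, the text says that it was picked afterwards.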

Additional observations from a re-analysis of the deposited data

Results flagged for a closer look

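Among 100 groups of 4 mice tested, 4 held a library far from the 3 others; chance flags about 1 in 20 groups. Piezo1 was at 53.4 CPM in doxorubicin 2, against 38.9 CPM in the next library of the group. The ratio of Yap1 to Wwtr1 per kilobase was 0.501 in vehicle 4, against 0.363 in the next. Skeletal muscle markers summed to 4903 CPM in vehicle 3, against 24065 CPM in the next. Kif3b was at 32.3 CPM in vehicle 3, against 28.6 CPM in the next.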

How the results depend on the processing

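No member passed the threshold (count 0) under any alternative run: scaling by DESeq2 size factors or by library totals alone, no low-count filter, a floor of 1 CPM in 4 libraries, DESeq2, limma-voom, the replicate number as a block, covariates for marrow, muscle, osteoblast markers and the GC offset, an adjusted p threshold of 0.1, and each library left out. Of all genes, 0 passed in the main test, 1 with no filter on low counts and 29 in DESeq2. The sign of the log2 difference turned for Gja1 with the marrow (−0.045) and osteoblast (−0.14) covariates, for Piezo1 when scaled by library totals alone (−0.013) and the osteoblast (−0.061) and GC offset (−0.21) covariates, for Trpv4 with the GC offset covariate (−0.096), and for Wwtr1 with the marrow (−0.062), muscle (−0.0097) and osteoblast (−0.016) covariates. With 1 library left out the ranges were −0.051 to 0.29 for Gja1, −0.17 to 0.016 for Panx1, −0.12 to 0.27 for Piezo1, −0.11 to 0.080 for Ptk2, −0.031 to 0.25 for Trpv4 and −0.058 to 0.22 for Wwtr1. Not all of these estimates are small beside their SE: Piezo1 was at −0.21 ± 0.12 with the GC offset covariate and at 0.27 ± 0.18 without vehicle 4. The cause of each turn was not tested. Panx3, Pkd1, Yap1 and Piezo2 kept their sign throughout.

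Panx3 came closest to a call with the replicate block (0.76, adjusted p = 0.517 in edgeR) and had its smallest unadjusted p, 0.00085, with the marrow covariate (1.07, adjusted p = 0.523); its adjusted p lay between 0.517 and 1.00 over the alternatives. Same-numbered mice did not deviate together in every pair (r of 0.34, −0.27, 0.43 and 0.09), and for different numbers r lay between −0.42 and 0.23. The numbers were not taken to pair the samples, though these values do not settle it. The block left 0 genes past the threshold. In edgeR, 1466 genes had an unadjusted p under 0.05 with the block and 913 without, and that of Panx3 was 0.011 and 0.089. The GC offset covariate was chosen after seeing the data. Counts fell lowest for Piezo2 (41 to 93) and Panx3 (38 to 352), and Panx3 also had the widest spread between mice.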

Other observations

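Several early response genes shared their highest library. Egr1, an immediate early transcription factor, measured 152, 69.6, 10.5 and 13.1 CPM in vehicle 1 to 4 and 26.0, 28.2, 7.15 and 10.4 CPM in doxorubicin 1 to 4. Ccn1, a YAP and TAZ target that is also induced early, measured 149, 67.5, 17.3 and 22.7 CPM in vehicle and 67.3, 35.96, 14.1 and 15.7 CPM in doxorubicin. Ccn2 was highest in vehicle 1 at 232 CPM, as was Fos at 35.1 CPM. Of the 9 osteocyte markers, the matrix protein gene Dmp1 (630.0 CPM) and the phosphate hormone Fgf23 (3.63 CPM) were highest in vehicle 1, while Mepe, another matrix protein gene, was lowest of its group there at 109 CPM. The log2 difference of Dmp1 was −1.03, whereas 7 of the 9 lay above 0, with a median of 0.32. In doxorubicin bones Ccn1, Ccn2, Fos and Dmp1 were higher in doxorubicin 1 and doxorubicin 2 than in doxorubicin 3 and doxorubicin 4, as Gja1 was. None of these genes passed the threshold, and Ccn1, Ccn2, Fos, Fgf23 and Mepe were chosen after their values were seen.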
